A study of Mus musculus with 15 samples.

Results

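Transcripts of 10 genes that set the threshold for apoptosis were followed through glutamine (Gln) antagonism in a mouse model of pancreatic ductal adenocarcinoma (PDAC). They were taken by name from tables of 55291 genes. The 7 pro-death genes are the BH3-only genes Bbc3, Pmaip1, Bcl2l11 and Bid, the pore-forming effectors Bax and Bak1, and the death receptor Tnfrsf10b. The 3 pro-survival genes are Mcl1, Bcl2l1 and Bcl2. Bulk RNA-seq covered 15 samples in 5 groups of 3. All of them came from HY19636, a single PDAC line of C57BL/6 background from genetically engineered mice that carried p53 L/+ and Ptf1a-Cre, labeled as mutant for p53. The cells of this line share its alleles in every group, and the tumors also hold cells of the host mice. Control cells grew in complete medium with 10% FBS, DON cells had 25 µM of DON, a Gln analog that blocks enzymes using Gln, for 24 h, and no Gln cells were kept without Gln for 24 h. The tumors grew from HY19636 cells placed in the pancreas of female B6J mice aged 8 to 10 weeks, dosed with vehicle or with DRP-104 (3 mg per kg), a prodrug that releases DON. Dosing ran for 2 cycles, each of 5 days with and 2 days without drug, and 3 tumors per group were taken on day 21. The labels do not say whether the replicates of a culture group were separate cultures, so their p-values measure the spread between these samples, which may be technical.

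Members of the BCL2 family meet at the outer membrane of mitochondria. BAX and BAK1 form pores there that release cytochrome c, the pro-survival proteins hold them and the BH3-only proteins in check, and BH3-only proteins free or activate the effectors. Death receptors such as the product of Tnfrsf10b, the mouse receptor for the ligand TRAIL, reach the same point from the cell surface through caspase 8, which cleaves BID. PDAC cells often rely on BCL-xL, made from Bcl2l1, and on MCL1. Much of the control over this family acts on proteins, which RNA-seq does not measure.

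RefSeq promoter windows were found for 8 of the 10 genes. The 5 shown are those of 2 BH3-only genes that rose in both culture treatments and of 3 genes whose transcript differed most between DON and no Gln cells. Each line is the 250 bases before the first RefSeq start, 5′ to 3′ on the strand of the gene in GRCm38.p6, at chr7:16309333-16309582 (plus strand) for Bbc3, chr2:128125788-128126037 (plus) for Bcl2l11, chr7:45466899-45467148 (minus) for Bax, chr3:95658471-95658720 (plus) for Mcl1 and chr1:106714291-106714540 (minus) for Bcl2. Capitals mark matches, on either strand, of the GC box GGGCGG or the E-box CACGTG.
Bbc3: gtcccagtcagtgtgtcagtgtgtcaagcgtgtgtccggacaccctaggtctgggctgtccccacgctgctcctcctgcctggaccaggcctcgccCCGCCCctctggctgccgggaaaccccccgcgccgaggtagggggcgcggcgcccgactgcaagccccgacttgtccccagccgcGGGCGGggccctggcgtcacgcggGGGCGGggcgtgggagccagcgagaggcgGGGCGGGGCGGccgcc
Bcl2l11: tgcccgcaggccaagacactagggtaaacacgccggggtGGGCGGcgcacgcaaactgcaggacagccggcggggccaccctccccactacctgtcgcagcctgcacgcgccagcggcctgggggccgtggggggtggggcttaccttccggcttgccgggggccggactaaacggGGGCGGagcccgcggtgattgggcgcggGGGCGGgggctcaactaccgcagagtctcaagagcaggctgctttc
Bax: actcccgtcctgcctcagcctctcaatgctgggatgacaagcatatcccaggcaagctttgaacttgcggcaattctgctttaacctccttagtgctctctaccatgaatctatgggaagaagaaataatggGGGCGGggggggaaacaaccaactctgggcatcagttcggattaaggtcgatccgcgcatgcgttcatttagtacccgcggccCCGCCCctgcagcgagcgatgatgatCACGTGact
Mcl1: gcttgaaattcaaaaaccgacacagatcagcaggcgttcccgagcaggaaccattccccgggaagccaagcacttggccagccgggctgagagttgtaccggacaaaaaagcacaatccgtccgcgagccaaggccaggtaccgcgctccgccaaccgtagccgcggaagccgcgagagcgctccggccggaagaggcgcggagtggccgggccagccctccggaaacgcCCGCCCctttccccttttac
Bcl2: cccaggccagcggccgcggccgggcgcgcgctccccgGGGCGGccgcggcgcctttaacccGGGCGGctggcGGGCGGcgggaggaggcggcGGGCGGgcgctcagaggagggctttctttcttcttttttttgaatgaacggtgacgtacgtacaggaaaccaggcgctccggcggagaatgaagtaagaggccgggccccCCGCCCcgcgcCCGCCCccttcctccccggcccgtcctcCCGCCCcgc
These windows held 5, 3, 2, 1 and 7 GC boxes in that order, with overlapping matches counted, and 32.7% of 32851 RefSeq windows of this length held at least 1. Of the genes not shown, Bid had 3 in its window, and the windows of Bak1 and Bcl2l1 had 0. The E-box, found in 6.02% of windows, stood once in the Bax window, from 9 bases before the start, and once in another Bbc3 window. The core TGATGNAA of the C/EBP-ATF element that ATF4 and CHOP bind, found in 3.45% of windows, and the CRE TGACGTCA, found in 1.55%, had no match in the windows of the 8 genes. No match says only that these letters are not in these windows.

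Values are the deposited counts normalized within each comparison, and RPKM, computed from whole reads and the gene lengths of the tables, where levels of different genes are compared. Libraries held 25.2 to 48.2 M reads in culture, the most in control library 3, and 16.3 to 20.7 M in tumors. The cells had all 5 ductal and epithelial markers. These summed to 323000 to 412000 normalized counts in control, 107000 to 115000 in DON and 135000 to 148000 in no Gln cells. The defining T cell markers Cd3d, Cd3e and Cd3g and the fibroblast markers Dcn and Lum had no read in any culture library. Of the other markers in these lists, some were present. In culture, 2 of 6 T cell markers had a mean of at least 10, with sums over the list of 54.5 to 168 normalized counts, and so did 2 of 6 macrophage markers, with sums of 1160 to 2760. The 5 fibroblast markers summed to 471 to 630 in control, 121 to 157 in DON and 1080 to 1120 in no Gln cells. Their part in the members' values was not tested. Each of the 10 genes passed the minimum mean of 10 in every comparison. All tests were limma fits across all genes with Benjamini-Hochberg adjustment, and changes are log2 differences of normalized counts plus 1. Single genes were also compared by a two-sided exact permutation test of the 6 values, which cannot give less than p = 0.1 with 3 against 3, the value reached wherever groups did not overlap.

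The first question was how blocking Gln use with DON moved pro-death and pro-survival genes in cultured cells. After DON, 3 of the 4 BH3-only genes and Bax rose, Bak1 and Tnfrsf10b fell, and all 3 pro-survival genes fell, Bcl2 the most and Mcl1 by a margin that did not hold in every scaling. In all, 9 of the 10 genes passed the test, where 68.1% of the 13556 genes tested did. Of these 9, 4 were higher and 5 lower, against 33.3% and 34.7% of all genes, and the groups did not overlap for the same number, 9, against 71.9% of all genes. The median log2 fold change was 0.46 over the 7 pro-death genes and -0.64 over the 3 pro-survival genes, beside 0.02 over all genes tested.

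Among BH3-only genes, Pmaip1 (ENSMUSG00000024521, chromosome 18, 66458604 to 66465550), which encodes NOXA, the binding partner of MCL1, had 1256, 976 and 1154 normalized counts in DON cells and 385, 427 and 634 in control cells. Every DON library lay above every control library, and the log2 fold change was 1.25 (95% interval 0.89 to 1.61, adjusted p = 1.45e-05, limma), higher than that of 90.8% of the genes tested. Bcl2l11 (ENSMUSG00000027381, chromosome 2, 128126038 to 128162547), which encodes BIM, a partner of all pro-survival proteins, had 1240.3, 1430.4 and 1283 against 742, 854 and 806 normalized counts. The groups stood apart, and its log2 fold change was 0.72 (0.49 to 0.95, adjusted p = 4.06e-05, limma). Bbc3 (ENSMUSG00000002083, chromosome 7, 16309616 to 16318205), which encodes PUMA, a p53 target, had 1024, 910.5 and 1027.5 against 668, 689 and 551 normalized counts. It was again higher in all 3 DON libraries, by 0.64 (0.38 to 0.90, adjusted p = 0.000313, limma). Bid (ENSMUSG00000004446, chromosome 6, 120891930 to 120916853), which links death receptors to mitochondria, had 492, 517 and 465 against 537, 419.6 and 427. Its groups overlapped and its log2 fold change was 0.10, with an interval of -0.19 to 0.39 (adjusted p = 0.526, limma). Of its exonic bases, 17.7% are shared with Bcl2l13 on the other strand, and whether the counting used strand is not given in the sources used here.

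The effectors moved in opposite directions after DON. Bax (ENSMUSG00000003873, chromosome 7, 45461695 to 45466898) had 2397, 2223 and 2184 normalized counts in DON cells and 1798, 1588.5 and 1565 in control cells. It was higher in every DON library, by 0.46 (0.25 to 0.67, adjusted p = 0.00071, limma). Bak1 (ENSMUSG00000057789, chromosome 17, 27019810 to 27029009) had 2278, 2070.3 and 2017 against 3099, 3298 and 2771. It was lower in every DON library, with a log2 fold change of -0.52 (-0.73 to -0.32, adjusted p = 0.00027, limma). Overlapping genes share 12.2% of the exonic bases of Bax (Gm45808) and 25.5% of those of Bak1 (Ggnbp1, other strand). The receptor gene Tnfrsf10b (ENSMUSG00000022074, chromosome 14, 69767472 to 69784403) had 1059, 959 and 1094 against 2349, 2421.5 and 2098 normalized counts. Its level in DON cells was 0.453 times that of control cells (0.391 to 0.527), with -1.14 on the log2 scale (limma, adjusted p = 2.12e-07), and the groups were far apart.

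Of the pro-survival genes, Bcl2 (ENSMUSG00000057329, chromosome 1, 106538178 to 106714274) fell from 889, 802 and 1055.5 normalized counts in control cells to 171, 180.1 and 259 in DON cells. The groups lay far apart, and the log2 fold change was -2.18 (-2.55 to -1.82, adjusted p = 6.12e-08, limma), with 6.43% of genes lower still. Of the exonic bases of Bcl2, 6.09% are shared with D630008O14Rik on the other strand. Bcl2l1 (ENSMUSG00000007659, chromosome 2, 152780668 to 152831728) had 3366, 3048 and 3542 against 5401, 5512.5 and 4629. It was lower in all 3 DON libraries, by a log2 fold change of -0.64 (-0.85 to -0.43, adjusted p = 4.86e-05, limma). Its count does not separate the long pro-survival form BCL-xL from the short form BCL-xS, nor do the counts of Bcl2l11 and Mcl1 separate their isoforms. Mcl1 (ENSMUSG00000038612, chromosome 3, 95658721 to 95663176), a short-lived protein that restrains BAK1, had 9102, 8855 and 8902 against 10395, 10171 and 10499. All 3 DON values were lower, by 0.21 on the log2 scale (-0.38 to -0.04, adjusted p = 0.0326, limma). This small fall depended on the scale, with -0.0015 on the log2 scale (limma, adjusted p = 0.987) after quantile normalization, which moved the median of all genes from 0.02 to 0.13, and with RPKM of 84.6 to 86.7 in DON and 85.8 to 96.3 in control cells, which overlapped. It also had an adjusted p above 0.05 in 5 of the 6 limma fits that left out 1 library, the exception being the fit without control library 3.

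**Figure D1:**
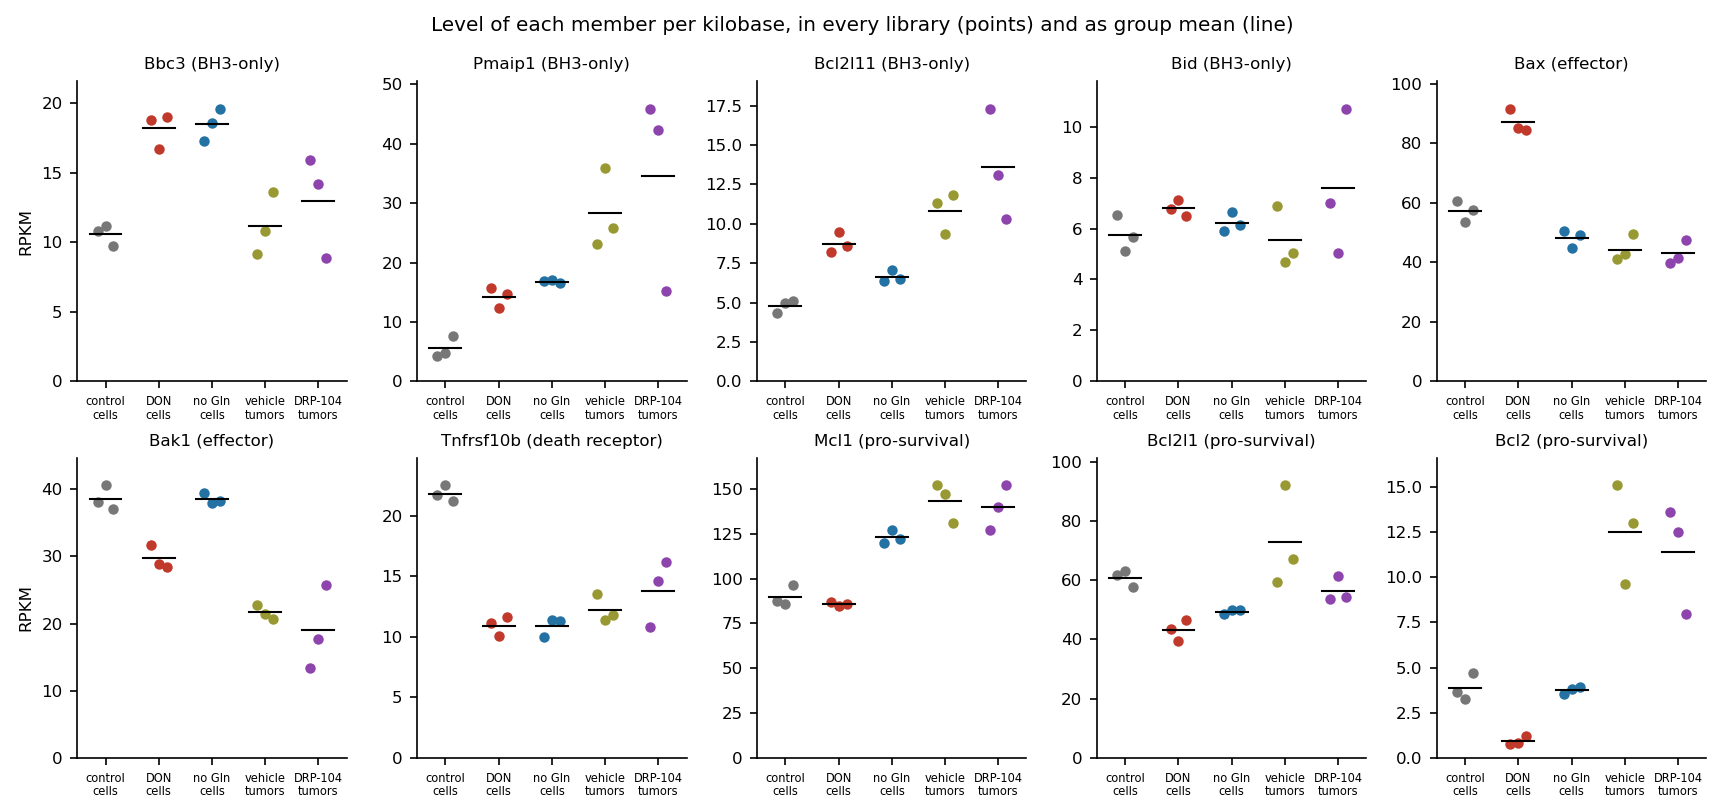
RPKM (linear axes from 0) of each of the 10 genes in the 15 libraries, with 1 point per library and a line at each group's mean. In the first 3 columns of points, Pmaip1, Bcl2l11 and Bbc3 lie higher in both treated groups than in control cells, Tnfrsf10b and Bcl2l1 lie lower in both, and Bcl2 is low in DON cells alone among the cultures.

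The second question was which of these changes appeared when Gln itself was removed. Without Gln, Pmaip1, Bbc3 and Bcl2l11 again rose, Tnfrsf10b and Bcl2l1 again fell, Bax fell and Mcl1 rose. In all, 7 of the 10 genes passed, 4 higher and 3 lower, where 69.4% of 13390 genes tested did, 34.5% higher and 34.9% lower. For 7 of the 10 genes the groups stood apart, against 73.6% of all genes. The comparison shares its 3 control libraries with that of DON, so the values are given side by side and the treatments are set against each other directly further on.

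Pmaip1 had 1315, 1318.5 and 1274 normalized counts without Gln, against 459 ± 133 (SD, n = 3) in control cells as scaled in this table. It was higher in every library, with a log2 fold change of 1.54 (1.19 to 1.89, adjusted p = 2.64e-06, limma), higher than that of 93.8% of the genes tested. Bbc3 had 924, 991 and 1027 against 604 ± 63.5 normalized counts. Its groups stood apart by a log2 fold change of 0.70 (0.46 to 0.95, adjusted p = 0.000103, limma). Bcl2l11 had 940.0, 1041 and 946 against 761 ± 55.6. Its rise was 0.36 (0.13 to 0.58, adjusted p = 0.00786, limma). In the fit that left out no Gln library 2 it was 0.31, with an adjusted p of 0.0501 (limma). Bid, at 419, 469.8 and 429 against 438 ± 59.4, had a log2 fold change of 0.01 with an interval of -0.27 to 0.30.

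Both effectors had negative changes without Gln, and 1 passed the test. Bax had 1296, 1141 and 1238 against 1568 ± 109.8 normalized counts, lower in every library, with a log2 fold change of -0.36 (-0.56 to -0.15, adjusted p = 0.00518, limma). Bak1, at 2769.8, 2659 and 2640.5 against 2903 ± 222, overlapped with control cells and had a log2 fold change of -0.11 (-0.29 to 0.08, adjusted p = 0.283, limma). Tnfrsf10b had 931, 1055 and 1033 against 2175 ± 136.3 normalized counts. The receptor gene was thus at 0.463 times its control level (0.401 to 0.534), with -1.11 on the log2 scale (limma, adjusted p = 4.07e-07).

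Mcl1 had 12295, 12974 and 12283 normalized counts without Gln, against 9843 ± 262. All 3 libraries were higher, by 0.35 (0.18 to 0.51, adjusted p = 0.00127, limma), and the adjusted p was at most 0.014 under the 16 alternatives. Bcl2l1 had 3655, 3749.9 and 3701.5 against 4920.5 ± 399. It was lower in every library, with a log2 fold change of -0.41 (-0.59 to -0.22, adjusted p = 0.000849, limma). Bcl2, at 749, 805 and 818 against 871 ± 133.4, overlapped with control cells. Its log2 fold change was -0.13, with an interval of -0.39 to 0.13 (adjusted p = 0.353, limma).

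**Figure D2:**
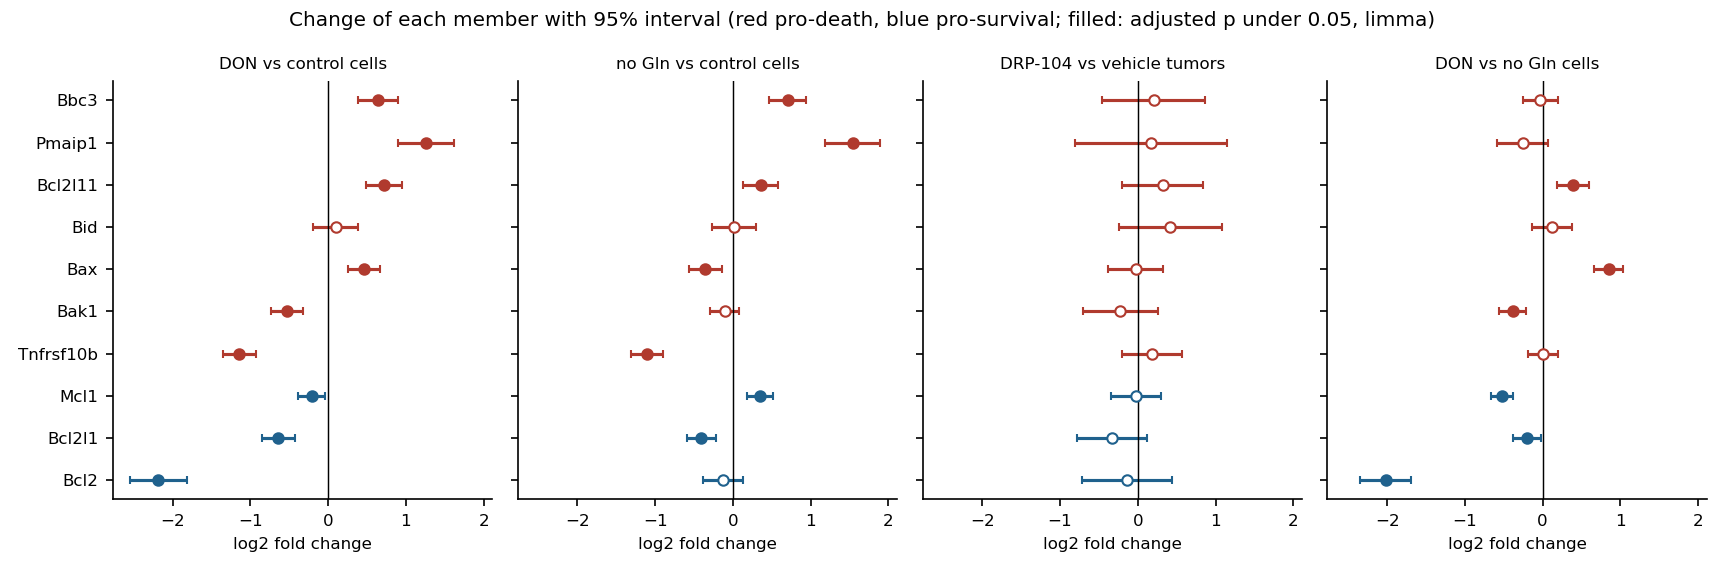
Log2 fold change of the 10 genes (points) with 95% intervals (bars) in 4 comparisons, red for pro-death and blue for pro-survival genes, filled where the limma adjusted p was under 0.05. After DON all 3 blue points lie below 0, without Gln they lie on both sides, and in the tumors all 10 intervals include 0.

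To see where the treatments differed, DON and no Gln cells were compared directly in 1 fit of the 9 culture libraries, scaled together. Of the 10 genes, 6 differed, 2 higher and 4 lower in DON cells, where 63.3% of 13514 genes did, 31.0% higher and 32.3% lower. All 3 pro-survival genes were lower in DON cells. The largest difference was in Bcl2, with 168, 177 and 255 normalized counts in DON cells and 757, 815 and 827 in no Gln cells. These groups lay far apart, with a log2 difference of -2.02 (-2.34 to -1.69, adjusted p = 2.26e-08, limma). Mcl1 had 8937, 8728 and 8751 against 12436, 13131 and 12428. It was lower in every DON library, with a log2 difference of -0.52 (-0.66 to -0.38, adjusted p = 5.1e-06, limma), and stayed under an adjusted p of 0.05 in all 19 alternatives. Bcl2l1 differed by -0.20 (-0.38 to -0.03, adjusted p = 0.0443, limma), which 11 of the 19 alternatives did not hold, with adjusted p up to 0.392.

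Bax was the pro-death gene that separated the treatments most, with 2353, 2191 and 2147 normalized counts in DON cells and 1311, 1155 and 1253 in no Gln cells. No values overlapped, and the log2 difference was 0.85 (0.66 to 1.03, adjusted p = 5.61e-07, limma). Bcl2l11 was higher in DON cells by 0.39 (0.19 to 0.60, adjusted p = 0.0024, limma) and Bak1 lower, at -0.38 (-0.56 to -0.21, adjusted p = 0.0008, limma). Bbc3, Pmaip1, Bid and Tnfrsf10b did not pass. Their log2 differences and intervals were -0.03 (-0.26 to 0.19) for Bbc3, -0.25 (-0.58 to 0.07) for Pmaip1, 0.12 (-0.14 to 0.38) for Bid and 0.00 (-0.19 to 0.20) for Tnfrsf10b. The 3 Pmaip1 values of DON cells nevertheless lay below those of no Gln cells, and without control library 3 its adjusted p was 0.027 (limma). Over the 10 genes, the groups of 7 stood apart, against 71.7% of all genes. The 3 genes whose pattern over the 9 culture libraries was most like that of Bcl2 were Plcb1, a phospholipase C gene, Lancl3 and Cxxc4, an inhibitor of WNT signaling, with root mean square log2 differences of 0.14, 0.20 and 0.20. Plcb1 had a mean of 138.7 normalized counts in control, 27.4 in DON and 126 in no Gln cells.

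Levels per kilobase place the genes on a common scale that rests on the deposited gene lengths. For Bax this length is 869 bases, against 1576 exonic bases in GENCODE M21, and for Bcl2l1 2568 against 4586. For Mcl1 it is 3485 against 3418. The order of genes within a group and the sums and ratios by role depend on these lengths, and other lengths were not tested. Mcl1 had the highest RPKM of the 10 genes in control cells (89.9 ± 5.65, SD, n = 3), no Gln cells (123 ± 3.67) and both tumor groups. In DON cells Bax (87.1 ± 3.92) and Mcl1 (85.7 ± 1.09) had overlapping ranges. In control cells the order after Mcl1 was Bcl2l1 (60.8) and Bax (57.3), which overlapped, then Bak1 (38.6), Tnfrsf10b (21.8) and Bbc3 (10.6), each apart from the next. The lowest 4, Bid (5.76), Pmaip1 (5.56), Bcl2l11 (4.81) and Bcl2 (3.87), overlapped from neighbor to neighbor. Bcl2 was lowest in all 3 culture groups, at 0.945 RPKM in DON cells and 3.76 in no Gln cells. In DON and no Gln cells, Bbc3 and Pmaip1 stood above Tnfrsf10b with no overlap, the reverse of their order in control cells.

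Summed over the 4 BH3-only genes, the RPKM was 26.7 ± 1.24 (SD, n = 3) in control cells, 48.0 ± 2.08 in DON cells and 48.2 ± 1.55 in no Gln cells. The summed RPKM of Mcl1, Bcl2l1 and Bcl2 was 155 ± 3.79, 130.0 ± 4.16 and 176 ± 4.58 in the same groups. The pro-survival sum was thus 5.64 to 5.90 times the BH3-only sum in control cells, 2.65 to 2.74 times in DON cells and 3.59 to 3.70 times in no Gln cells. Against the sum of all 7 pro-death genes, the pro-survival sum was 1.04 to 1.1 times as high in control cells, lower in DON cells at 0.713 to 0.770 and higher in no Gln cells at 1.17 to 1.26. The ranges of neither ratio overlapped between the culture groups. The direction without Gln thus depended on whether Bax, Bak1 and Tnfrsf10b were counted, and both ratios are given as a description, since the members were chosen with results of these data known. Mcl1 made up 58.1% of the pro-survival sum in control cells, 66.1% in DON cells and 69.8% in no Gln cells. The sums leave out other genes of the family, some of which moved the other way. The BH3-only genes Bad and Bmf fell after DON (-1.01 and -2.16 on the log2 scale) and without Gln (-0.44 and -4.91). Hrk rose after DON from near 0 (3.89), and the pro-survival gene Bcl2l2 rose in both treatments (1.61 and 1.55).

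**Figure D3:**
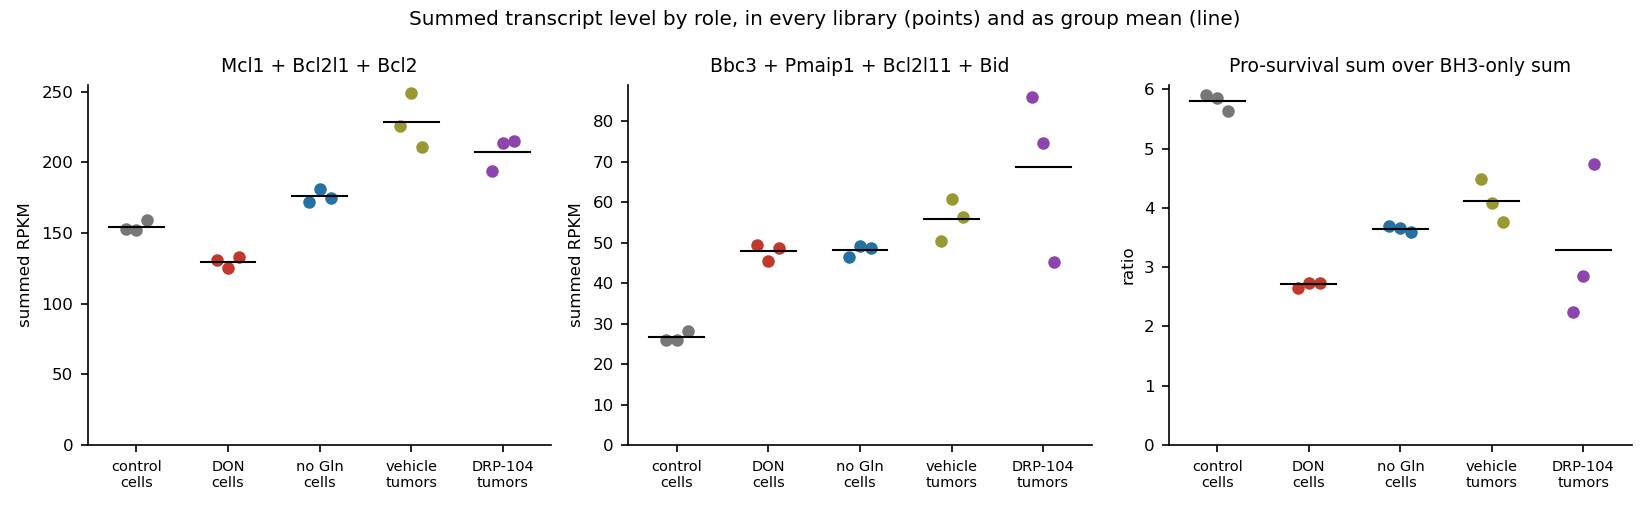
Summed RPKM of the 3 pro-survival genes (left), of the 4 BH3-only genes (middle) and their ratio (right) in each library (points), with group means as lines. The ratio is highest in control cells, at 5.64 to 5.90, and the DRP-104 tumors spread from 2.25 to 4.74 around the vehicle tumors at 3.76 to 4.49. Other BH3-only and pro-survival genes, such as Bad, Bmf and Bcl2l2, are not in these sums.

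In tumors, the question was whether DRP-104 moved the same genes in vivo. None of the 10 passed the test, 0 of them had an unadjusted p under 0.05 by limma, and edgeR and DESeq2 on recovered reads called 0 of them. No gene of the 15454 tested was called by limma (0.0%), 775 had an unadjusted p under 0.05, and DESeq2 called 56. The groups overlapped for all 10 genes, where 10.6% of all genes did not overlap. Adjusted p-values were 0.916 to 0.987 (limma) and log2 fold changes lay between -0.33 for Bcl2l1 and 0.42 for Bid. In bulk tumors, fewer cells of a type and less RNA per cell cannot be told apart.

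Pmaip1 had 2405, 2112 and 735 normalized counts in DRP-104 tumors and 1100.1, 1827 and 1297 in vehicle tumors. Both extremes were DRP-104 tumors, and the log2 fold change of 0.17 had an interval of -0.81 to 1.15. Bcl2l11 had 1725, 1242 and 942 against 1024, 904 and 1125, with a log2 fold change of 0.32 (-0.20 to 0.84). Bbc3 had 570.0, 486 and 292 against 299, 378 and 466, with 0.21 (-0.45 to 0.87). In each of these 3 genes DRP-104 tumor 3 was the lowest of its group. Bid, at 335, 229.6 and 469.6 against 299, 218 and 231, had the largest change of the 10, 0.42 (-0.25 to 1.08), with tumor 3 the highest.

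Bcl2 had 1933, 1700.3 and 1043 normalized counts in DRP-104 tumors and 1949, 1326 and 1766 in vehicle tumors. DRP-104 tumor 3 was again lowest, and the log2 fold change was -0.14 (-0.72 to 0.44). Bcl2l1 had 2724, 2970.3 and 2527.5 against 2743, 4536 and 3267, with -0.33 (-0.78 to 0.12). Vehicle tumor 2 was highest, and vehicle tumor 1 lay within the DRP-104 range. Mcl1 varied little, from 8664 to 9839 over the 6 tumors, with -0.02 (-0.34 to 0.30). Among the other pro-death genes the log2 fold changes were -0.03 (-0.38 to 0.33) for Bax, -0.23 (-0.71 to 0.26) for Bak1 and 0.18 (-0.21 to 0.57) for Tnfrsf10b.

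Libraries that stood apart bear on these tumor values. DRP-104 tumor 3 had a summed 1250 normalized counts of 6 T cell markers, against 36.9 to 80.4 in the other tumors, and DRP-104 tumor 1 had 17981 detected genes against 22140 to 22524. The 5 fibroblast markers summed to 13200 to 23200 in DRP-104 and 29100 to 63400 in vehicle tumors, with no marker at 0. Their part in the members' values was not tested. Without DRP-104 tumor 3, the log2 fold changes were 0.71 for Pmaip1, 0.53 for Bcl2l11, 0.49 for Bbc3 and 0.13 for Bcl2, and that of Bid went from 0.42 to 0.17 and that of Bak1 from -0.23 to -0.44, with adjusted p of 0.819 or more in limma for each. In the deposited FPKM table, whose columns could not be matched to these tumors, Bax was 57.7 to 105 FPKM in DRP-104 and 48.7 to 52.3 FPKM in vehicle columns. It was the 1 member without overlap there, with 0.48 on the log2 scale (limma, adjusted p = 0.629) against -0.03 in the normalized counts.

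Bcl2 had a higher level in tumors than in cultures, with 9.61 to 15.1 RPKM in vehicle and 7.99 to 13.6 RPKM in DRP-104 tumors, against at most 4.69 in any culture library. Tumors hold host cells and the tables were normalized separately, so these levels are given side by side. The effect of DRP-104 in tumors was then set against that of DON in cells as an interaction, in which 3 of the 10 genes passed, where 33.1% of 15070 genes did. For Bcl2 the log2 fold change was -0.14 with DRP-104 and -2.18 with DON, a difference of 2.04 (1.33 to 2.76, adjusted p = 0.000439, limma). For Tnfrsf10b it was 0.18 and -1.14, a difference of 1.32 (0.92 to 1.73, adjusted p = 0.000167, limma). For Bax it was -0.03 and 0.46, a difference of -0.49 (-0.85 to -0.13, adjusted p = 0.038, limma), which passed in 7 of 20 alternatives. DON and DRP-104 were given at different doses and times, and the tumors hold other cells, so agent and setting cannot be told apart.

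The other genes of the pathway were 46 BCL2 family, receptor, adaptor, caspase, release and inhibitor genes, listed with results of these data known. After DON, 35 were tested, 10 were higher and 17 lower (77.1% called, against 68.1% of all genes, with a median log2 fold change of -0.34). Without Gln, 34 were tested, 7 were higher and 18 lower (73.5% called, against 69.4% of all genes, with a median of -0.36). In tumors 0 of 43 passed, where 0.0% of all genes did.

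**Figure D4:**
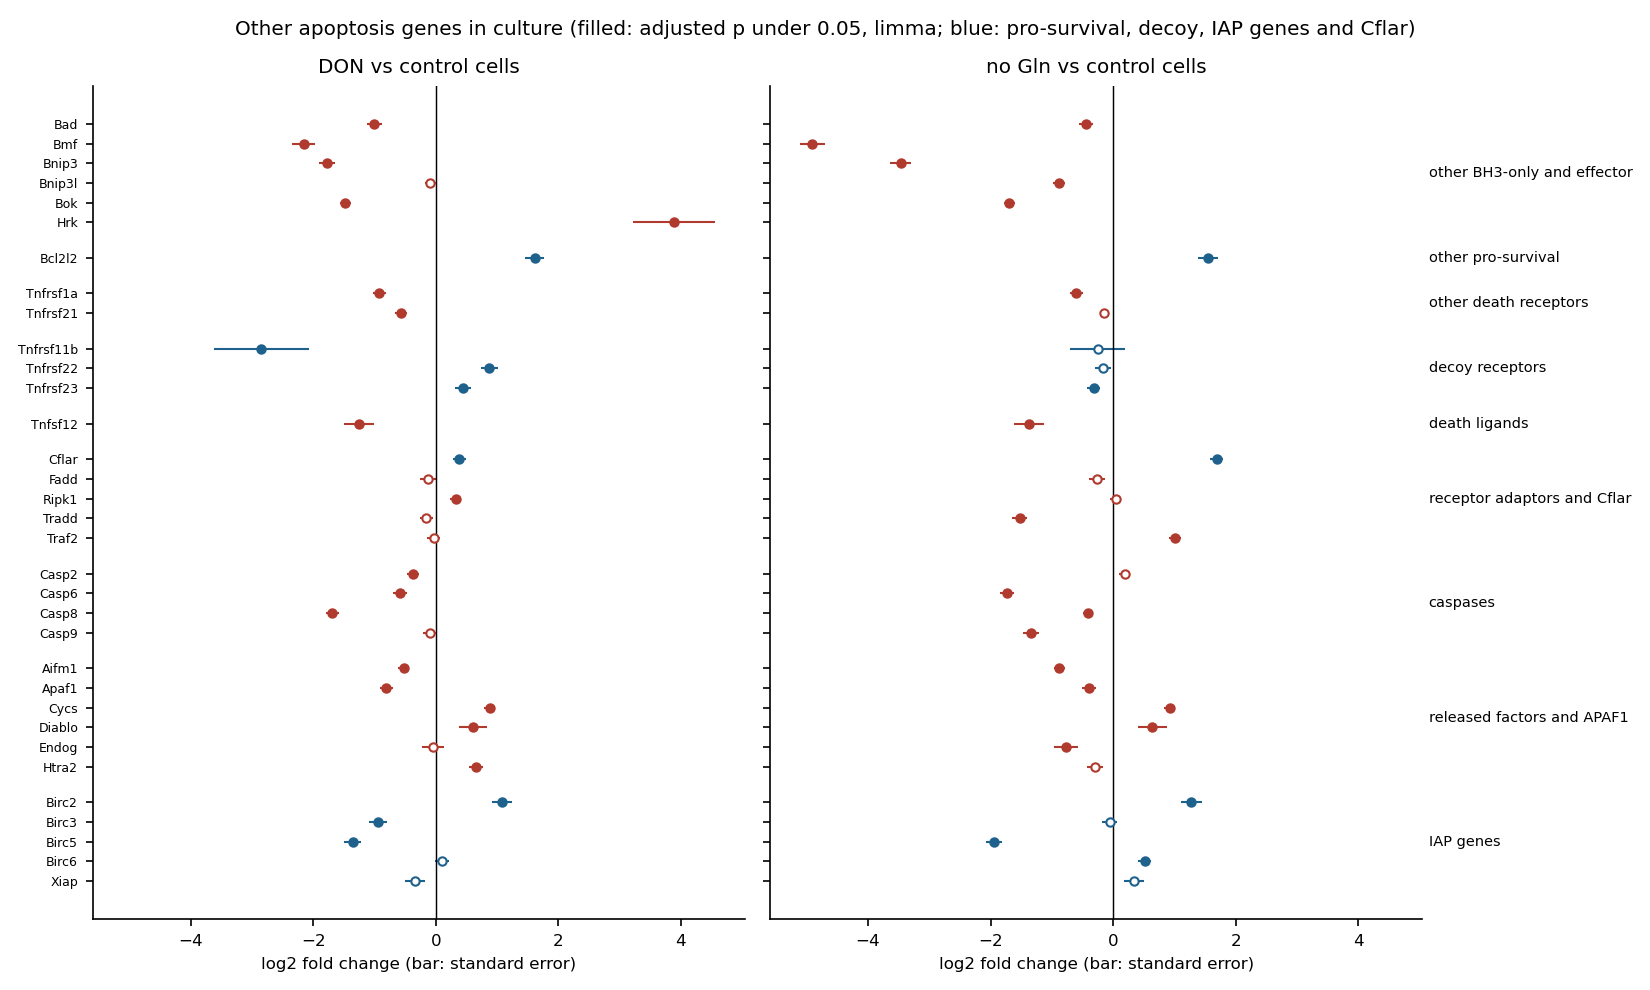
Log2 fold change with standard error (bar) of other apoptosis genes in DON (left) and no Gln (right) cells, against the same control libraries, filled where the limma adjusted p was under 0.05. Bmf lies furthest below 0 in the no Gln panel, at -4.91, and Bcl2l2 lies above 0 in both, at 1.61 and 1.55.

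Caspase genes encode the proteases that carry out apoptosis. Without Gln, Casp6, an executioner, fell from 1151 ± 55.5 to 348 ± 43.9 normalized counts (SD, n = 3), with -1.73 on the log2 scale (limma, adjusted p = 6.91e-08). After DON, Casp6 had -0.58 (adjusted p = 0.00032, limma). Casp8 fell more after DON, by 1.69 (adjusted p = 5.71e-09, limma), than without Gln, by 0.40 (adjusted p = 0.000778, limma). Casp2 had -0.36 after DON (adjusted p = 0.00483, limma) and 0.19 without Gln (adjusted p = 0.0765, limma). Casp9, which the APAF1 complex activates, had a log2 fold change of -1.33 without Gln and of -0.10 after DON (adjusted p = 0.457, limma). Among the factors of that complex, Cycs, which encodes cytochrome c, rose in both treatments, by 0.88 and 0.93, and Apaf1 fell by 0.80 after DON and by 0.40 without Gln. Aifm1, the gene of apoptosis-inducing factor, fell by 0.88 without Gln and by 0.53 after DON.

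Of the other BH3-only and effector genes, 4 of 6 tested were lower after DON and 5 of 5 without Gln, against 34.7% and 34.9% of all genes. Bmf, a BH3-only gene, fell from 1348 ± 113 to 312 ± 91.8 normalized counts after DON, and to 42.9 ± 13.7 without Gln against 1281 ± 101.5, with log2 fold changes of -2.16 (adjusted p = 1.78e-07, limma) and -4.91 (adjusted p = 8.11e-10, limma). Bnip3, a mitophagy receptor with a BH3-like domain, had -3.47 without Gln and -1.78 after DON. Hrk, a BH3-only gene, was near 0 in control cells and reached 40.9 ± 9.11 normalized counts after DON. Without Gln it lay under the filter, at 10.3 ± 7.33 against 2.41 ± 2.36 with no overlap, so the 5 genes counted there leave it out. In the other direction from Bcl2 and Bcl2l1, Bcl2l2, which encodes the pro-survival BCL-W, rose from 452 ± 107 to 1358 ± 64.4 after DON (1.61, adjusted p = 5.2e-07, limma) and by 1.55 without Gln. It was the 1 of 5 further pro-survival genes above the filter.

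Of the ligands, 3 of 4, among them Tnfsf10, which encodes TRAIL and was named after its values were seen, lay under the filter in both culture comparisons, and the remaining ligand, Tnfsf12, fell by 1.25 after DON and by 1.38 without Gln. The receptor Tnfrsf1a fell in both treatments (-0.92 and -0.60), and Tnfrsf21 fell after DON (-0.56). The decoy Tnfrsf22 rose by 0.88 after DON and had -0.17 without Gln (adjusted p = 0.252, limma), and Tnfrsf11b fell to 2.41 normalized counts from 18.2 after DON. Tnfrsf23 rose by 0.44 after DON (adjusted p = 0.00854, limma), with overlapping groups, and fell by 0.32 without Gln. Tnfrsf22 and Tnfrsf23 are close copies whose reads may be shared. Among adaptors, Cflar, which encodes the caspase 8 inhibitor c-FLIP, rose by 0.39 after DON and from 2680 ± 404 to 8606 ± 187 normalized counts without Gln, by 1.69 (adjusted p = 2.3e-08, limma). Ripk1 rose by 0.32 after DON and Tradd fell by 1.53 without Gln. Of the inhibitor of apoptosis genes, Birc2 rose by 1.08 and 1.28, and Birc5, which encodes survivin and follows cell division, had log2 fold changes of -1.35 and -1.95.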

How the data were processed

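Per the study's methods, the provider Novogene built and sequenced the libraries, used HISAT2 for alignment and DESeq2 for tests. The submitters' processing notes also name STAR 2.5, CASAVA and GRCm39, while the deposited coordinates are those of GRCm38. The counting tool and its use of strand are not given in the sources used here. The signal the authors deposited is the gene count divided by 1 size factor per library, scaled within each comparison table. The FPKM the authors deposited, for tumors only, were used by group as an alternative. Their columns of fold changes and p-values were not used.

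Values were divided by the worth of 1 read in each library, which gave whole reads (tolerance 0.0051) for at least 99.9711% of values and served count tests, joint scaling and RPKM. The 3 control libraries had the same reads in both culture tables for all 55291 genes, and their columns, which bear another name than the control samples' titles, were taken by group. Genes with a mean of at least 10 were tested with limma 3.58.1 (eBayes with trend, R 4.3.3) on log2(value + 1) and called at an adjusted p under 0.05. Fold changes on this scale understate the change of low genes. Alternatives were edgeR 4.0.16, DESeq2 1.42.0, other filters, pseudocounts, scaling and thresholds, a replicate block, and leaving out each library. The fits were tested on simulated data. Intervals cover the spread between libraries.

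The members and gene lists were chosen with earlier results of these data known. Named genes are the 10 members in every comparison, for each list and culture comparison the 2 genes with the largest changes among those called without overlap, and the 3 genes most like the member that changed most after DON. Some items, including genes that this rule names, are not reported here. Overlap of exons with other genes was checked for the members, in GENCODE M21. Tables were handled in Python 3.11 with pandas 2.3.3.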

Additional observations from a re-analysis of the deposited data

Results flagged for a closer look

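For 3 of the 10 genes the effect of treatment differed between tumors and cells, where 33.1% of 15070 genes tested did. This was an interaction contrast in limma (the effect of DRP-104 in tumors minus that of DON in cells, log2). The difference was 2.04 for Bcl2, whose log2 fold change was -0.14 in tumors and -2.18 in cells. It was 1.32 for Tnfrsf10b, with 0.18 in tumors and -1.14 in cells. It was -0.49 for Bax, with -0.03 in tumors and 0.46 in cells. Bcl2 and Tnfrsf10b passed an adjusted p of 0.05 in all 20 alternatives, with differences of 1.65 to 2.31 and of 1.23 to 1.46. Bax passed in 7 of the 20, with an adjusted p of up to 0.101 (limma). Agent, dose, time and setting cannot be told apart in this contrast.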

How the results depend on the processing

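All 10 members kept their direction and their side of the threshold under every alternative, apart from the cases given here and beside the results, and the number called by comparison stayed within 1.5 times. After DON the exception was Mcl1, called in 7 of 16 alternatives (adjusted p 0.0543 in limma with a replicate block). Replicate numbers did not pair samples (correlations of same-numbered deviations at most 0.0715), so the block is given here only. It also ended the calls of Bcl2l1 between DON and no Gln cells (0.0617) and Bax in tumors against cells (0.0577), and no other. In tumors, where no member was called, the FPKM table turned the sign of Bax (0.48), Tnfrsf10b (-0.17), Mcl1 (0.11), Bcl2l1 (0.11) and Bcl2 (0.033). Quantile normalization turned Bbc3 between DON and no Gln cells (0.015) and Mcl1 in tumors against cells (-0.044), both uncalled. Leaving out 1 library gave ranges across 0 for uncalled values: in tumors -0.14 to 0.71 for Pmaip1, -0.11 to 0.061 for Bax, -0.076 to 0.015 for Mcl1 and -0.32 to 0.13 for Bcl2, between DON and no Gln cells -0.074 to 0.024 for Bbc3 and -0.053 to 0.057 for Tnfrsf10b, and -0.057 to 0.12 for Bid without Gln. Without control library 3, Bak1 passed as lower in no Gln cells (-0.17, adjusted p = 0.0454, limma). In the interaction, Pmaip1 and Bcl2l11 passed without DRP-104 tumor 1 and Bcl2l1 without vehicle tumor 2. The causes were not tested. The spread between tumors (median SD 0.32 on the log2 scale, against 0.16 in the DON comparison) limits which tumor changes could be detected.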

Other observations

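Genes of the integrated stress response and p53 targets other than the members were also measured. All 4 tested genes of the integrated stress response rose in both culture treatments. Ddit3, which encodes the transcription factor CHOP, rose by 4.64 on the log2 scale after DON and by 4.48 without Gln. Trib3, a target of ATF4 and CHOP, rose by 3.67 and 3.09. Of the 9 p53 target genes tested, 4 were higher and 3 lower after DON, and 5 were higher and 3 lower without Gln, where 33.3% and 34.7% of all genes were higher and lower after DON and 34.5% and 34.9% without Gln. Trp53inp1 rose by 2.16 after DON and 1.81 without Gln, and Mdm2, the ligase that limits p53, by 1.17 and 1.18. Cdkn1a, the inhibitor of cell division p21, rose by 0.90 and 1.46. Phlda3, Sesn1 and Perp were lower in both treatments, at -1.15, -1.04 and -0.65 after DON and -0.57, -1.37 and -0.84 without Gln. In tumors 0 of the 4 stress response genes and 0 of the 10 p53 targets passed, where limma called 0 of all 15454 genes tested.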
